A study of Mus musculus with 6 samples.

Results

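The genes described are 8 transcription factors that mark undifferentiated spermatogonia: Zbtb16, Sall4, Sox3, Neurog3, Foxo1, Eomes, Pax7 and Pdx1. They were taken by symbol from the 57170 gene identifiers of a count table for whole mouse testis, and each matched 1 identifier. The table holds 6 libraries of polyadenylated RNA from testes at postnatal day 5. The sKO group has 4 libraries (sKO-1 to sKO-4) from testes in which Mdm2 had been conditionally knocked out in germ cells that had not entered meiosis. The WT group has 2 libraries (WT-1 and WT-2) from wild-type testes. The sources used here name neither the driver of the knockout nor the strain, and do not say that each library is a separate animal. The p-values therefore cover only how these libraries vary, which may be technical.

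Spermatogonia are the mitotic germ cells of the testis. The undifferentiated ones include the stem cells that sustain sperm production, and they are held in that state by transcription factors and by GDNF from the surrounding Sertoli cells. Retinoic acid then moves them into differentiation. Mdm2 is the ubiquitin ligase that keeps p53 low. Zbtb16 (also called PLZF) is a zinc-finger repressor needed to keep the stem cell pool, and Sall4 is a zinc-finger factor that binds it. Sox3, an X-linked HMG-box factor, and Neurog3, a basic helix-loop-helix factor, mark progenitors that are closer to differentiation. Foxo1 is a forkhead factor under the control of PI3K and AKT signalling and is also used by many somatic cells. Eomes (a T-box factor), Pax7 (a paired-box factor, best known from muscle stem cells) and Pdx1 (a homeobox factor, best known from pancreas) mark small subsets of the undifferentiated cells.

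Libraries held 17990837 to 18394437 expected counts, and 17707 genes passed the filter on low counts and were tested. Levels are given as CPM, counts relative to the total of their library after TMM scaling of that total. Mdm2, the targeted gene, was at 37.6, 47.3, 41.8 and 45.1 CPM in sKO-1 to sKO-4, against 67.2 and 75.9 CPM in WT-1 and WT-2. Its log2 fold change was -0.74 (SE 0.11, edgeR adjusted p = 0.0241), and that call held without sKO-1 (0.0490) but not without any other library (0.0509 to 0.168). The 10 pan-germ genes were chosen as germ cell markers with earlier results of these data known, so their fall is no separate evidence. How evenly the germ cell stages express these 10 genes was not tested. They summed to 91.9 to 152 CPM in sKO libraries and 502 to 728 CPM in WT libraries. Of these genes 10 of 10 fell (median log2 fold change -2.36, edgeR adjusted p of 0.0139 or less), against 2.30% of all tested genes. Without WT-1 the median was -2.05 and the calls were lost, as were almost all calls over all genes. Such a loss without WT-1, here and below, is therefore not particular to the genes named. Without WT-2 the median was -2.65, and 10 of 10 passed without any 1 of the sKO libraries. Summed genes of Sertoli cells, the somatic cells that surround the germ cells, were at 3740 to 4150 CPM in sKO and 3230 to 3790 CPM in WT. Of 10 Sertoli genes only Amh passed the test (log2 fold change 0.45, adjusted p = 0.0429), and of 4 peritubular muscle genes only Cnn1 did (-1.73, adjusted p = 0.0323). Both calls were lost without any 1 library (0.0709 to 0.315 for Amh and 0.0546 to 0.260 for Cnn1), and that of Amh also with Sertoli library sizes (0.112) and RLE factors (0.0538). The 3 erythroid genes summed to 328 to 466 CPM in sKO and 258 to 260 CPM in WT, and 0 of the 3 passed. The part of these cells in the results on the members was not tested. In RNA of whole testis, fewer germ cells and less RNA per germ cell cannot be told apart. The first principal component (38.1% of the variance) put WT-1, sKO-1 and sKO-2 on one side and WT-2, sKO-3 and sKO-4 on the other. These are called the first and second library subset, and the labels name no batch. Each subset holds 1 WT library. Differences within a subset are of mean log2 CPM (prior count of 2) and are not edgeR fold changes.

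Of the 8 genes, 5 passed the count filter, and 3 of these 5 fell in sKO testes: Sox3, Zbtb16 and Sall4 (edgeR quasi-likelihood test, adjusted p under 0.05 over all genes tested). Of all tested genes, 2.43% were called, 2.30% as lower and 0.124% as higher. The median log2 fold change of the 5 was -2.06, against 0.03 over all tested genes. Foxo1 and Eomes did not pass the test. Neurog3, Pax7 and Pdx1 were under the filter and are described by their counts. The filter keeps a gene that is high in WT only, so the share of tested members that fell does not describe all 8. All 4 sKO libraries were below both WT libraries for 4 of the 5 tested members, which held for 13.3% of all tested genes. All 4 sKO libraries were above both WT libraries for 0 of the 5, against 9.79% of all tested genes.

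**Figure D1:**
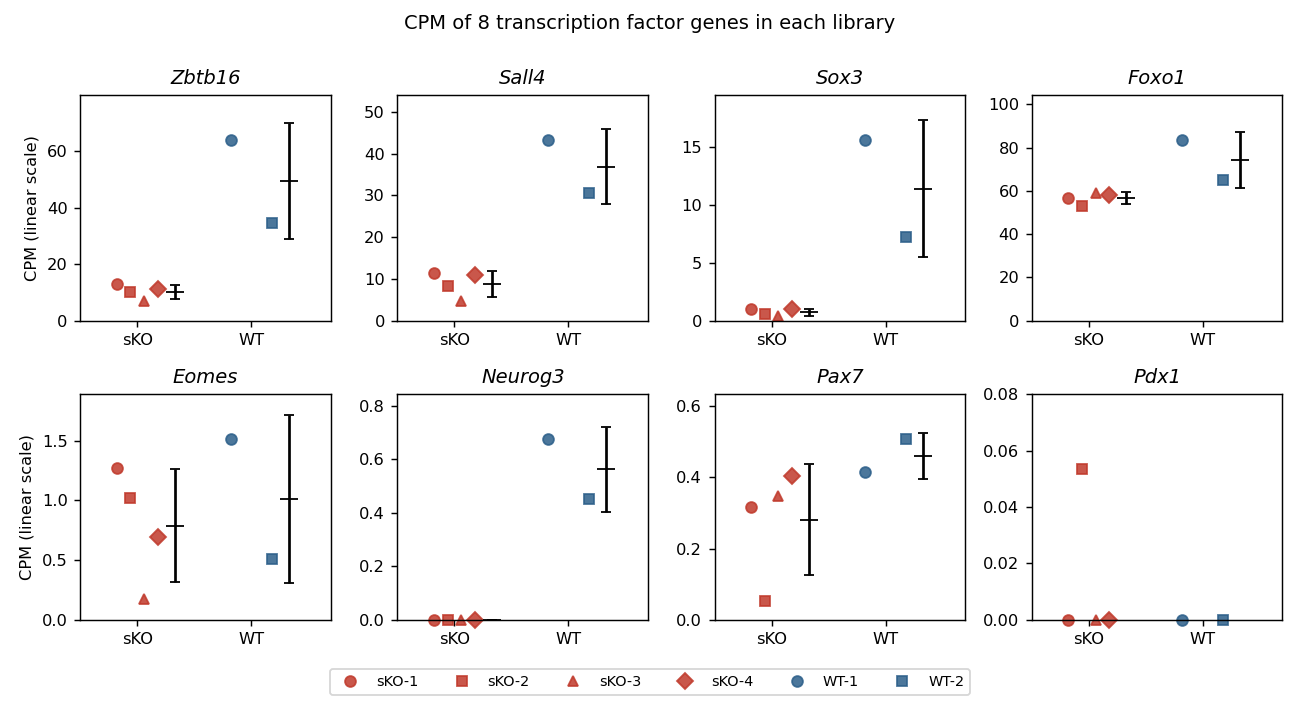
CPM (linear axis from 0, a different range in each panel) of the 8 genes in each library, sKO in red and WT in blue, with the group mean and SD as black bars (none for Pdx1, which had 1 count in all). For Sox3, Zbtb16 and Sall4 no sKO point reached a WT point, Neurog3 was at 0 in all 4 sKO libraries, and the Eomes groups overlapped.

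Zbtb16 (ENSMUSG00000066687, chromosome 9) was at 13.0, 10.3, 7.05 and 11.1 CPM in sKO-1 to sKO-4, against 63.8 CPM in WT-1 and 34.7 CPM in WT-2. Every sKO library was below both WT libraries, and WT-1 was 1.84 times WT-2. The means were 10.3 ± 2.47 CPM in sKO (SD, n = 4) and 49.3 ± 20.6 CPM in WT (SD, n = 2), so sKO testes had 21.0% of the WT level. The log2 fold change was -2.25 (SE 0.28, edgeR adjusted p = 0.0138), or -2.45 within the first and -1.96 within the second library subset. Without WT-1 it was -1.74 and no longer passed (adjusted p = 0.149).

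Sall4 (ENSMUSG00000027547, chromosome 2), the partner of Zbtb16, was at 11.5, 8.19, 4.79 and 10.9 CPM in sKO-1 to sKO-4, against 43.2 and 30.5 CPM in WT-1 and WT-2. Again no sKO library reached a WT library, and sKO-3 was the lowest for both genes. The means were 8.86 ± 3.08 CPM in sKO (SD, n = 4) and 36.9 ± 8.99 CPM in WT (SD, n = 2), with sKO at 24.0% of WT. edgeR gave -2.06 on the log2 scale (SE 0.32, adjusted p = 0.0235). The differences within the subsets were -2.14 and -2.06. The call was lost without WT-1 (log2 fold change -1.78, adjusted p = 0.257) or without sKO-2 (-2.02, adjusted p = 0.0696). The gene Gm14261 overlaps Sall4 on the opposite strand and had at most 1.21 counts in a library.

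The log2 ratio of Zbtb16 to Sall4 CPM within a library was 0.27 ± 0.23 in sKO (SD, n = 4) and 0.37 ± 0.27 in WT (SD, n = 2). This difference of -0.10 is smaller than the spread in either group.

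Sox3 (ENSMUSG00000045179, X chromosome, a single exon) had the largest fold change of the 5 tested members. It had 19, 10, 7 and 17 counts in sKO-1 to sKO-4, against 300 and 128 counts in WT-1 and WT-2. As CPM these were 1.01, 0.536, 0.404 and 0.982 in sKO and 15.6 and 7.21 in WT, so the lowest WT library was still far above the highest sKO library. The means were 0.732 ± 0.307 CPM in sKO (SD, n = 4) and 11.4 ± 5.91 CPM in WT (SD, n = 2), with sKO at 6.42% of WT. The log2 fold change was -3.95 (SE 0.43, edgeR adjusted p = 0.0110), at rank 13 among the lowest of the 17707 tested genes. The difference within the first library subset was -4.21 and within the second -3.29. Without WT-1 the log2 fold change was -3.29 and the call was lost. The sKO counts sum to 53, with an exact Poisson 95% interval of 39.7 to 69.3 that covers counting error only, as do the other such intervals.

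Neurog3 (ENSMUSG00000044312, chromosome 10), which acts in the progenitors that Sox3 also marks, was seen in WT libraries only. It had 0 counts in each of the 4 sKO libraries, against 12.98 expected counts in WT-1 and 8 in WT-2. Pooled over its group, WT was at 0.567 CPM. The 0 counts allow sKO a level of up to 0.0416 CPM (3 counts over the group), so Neurog3 was at least 13.7-fold lower in sKO, with the WT level taken as measured. The exact Poisson 95% interval was 6.50 to 16.1 counts per WT library and 0 to 3.69 counts over the sKO group, and that upper end is slightly above the 3 counts used. The count filter had removed it. With no filter, where 1.66% of 32550 genes were called lower, edgeR gave an adjusted p = 0.0167, while DESeq2 gave an unadjusted p of 0.00135 and no adjusted p, since its own filter dropped the gene. Fam241b overlaps Neurog3 on the opposite strand, and the sources used here do not say whether reads were counted by strand. Fam241b had 81, 57, 39 and 43 counts in the sKO libraries and 132.02 and 92 in the WT libraries (log2 fold change -0.99, edgeR adjusted p = 0.195).

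Foxo1 (ENSMUSG00000044167, chromosome 3) was at 56.6, 53.0, 59.0 and 58.1 CPM in sKO-1 to sKO-4, against 83.4 and 65.1 CPM in WT-1 and WT-2. The 4 sKO libraries lay close together, below both WT libraries. The means were 56.7 ± 2.63 CPM in sKO (SD, n = 4) and 74.3 ± 13.0 CPM in WT (SD, n = 2). This difference of -0.39 on the log2 scale (SE 0.11) did not pass the test (edgeR adjusted p = 0.172). The difference within the first library subset was -0.61 and within the second -0.15, and the log2 fold change was -0.20 without WT-1. With a term for the subset, a fit in which 8.65% of genes were called lower, the edgeR adjusted p was 0.0294. The subset was itself read off these data, Foxo1 included, so this p-value is no separate support for a change. The Sertoli sums given above overlapped between the groups, and their part in the Foxo1 level was not tested.

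The bases upstream of Neurog3 and Foxo1 are shown because 1 of these members had no count in sKO and the other, the most abundant member there per length, was at 76.3% of its WT level. Promoter sequences were found for 5 of the 8 genes. They are from RefSeq on GRCm38.p6 (the counts were made on mm39) and run over the 250 bases before the gene start, 5′ to 3′ on the gene's own strand. Neurog3 is at chr10:62132840-62133089 and Foxo1 at chr3:52268087-52268336, both on the plus strand. Capitals mark E-boxes (CANNTG, the site that basic helix-loop-helix factors bind) and GC boxes (GGGCGG on either strand, bound by SP factors).
Neurog3: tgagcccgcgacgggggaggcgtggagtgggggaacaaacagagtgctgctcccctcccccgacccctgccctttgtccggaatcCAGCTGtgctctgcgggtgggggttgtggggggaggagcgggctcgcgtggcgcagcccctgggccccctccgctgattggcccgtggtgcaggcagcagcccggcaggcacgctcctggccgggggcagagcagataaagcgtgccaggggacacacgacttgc
Foxo1: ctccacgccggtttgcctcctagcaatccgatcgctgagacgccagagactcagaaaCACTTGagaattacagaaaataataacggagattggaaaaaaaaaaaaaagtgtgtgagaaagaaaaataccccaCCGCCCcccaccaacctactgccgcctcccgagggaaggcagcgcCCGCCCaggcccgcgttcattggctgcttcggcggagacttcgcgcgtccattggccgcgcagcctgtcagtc
Each window held 1 E-box, as 66.2% of 32851 such windows did at least once. Foxo1 held 2 GC boxes and Neurog3 held 0, and 32.7% of all windows held at least 1. The windows of Neurog3, Foxo1, Eomes, Pax7 and Pdx1 had no match, on either strand, to the forkhead core GTAAACA (3.17% of all windows), the SOX core AACAAT (9.42%) or the TATA box TATAAA (12.4%). G and C made up 71.2% of the Neurog3 window and 56.0% of the Foxo1 window, against a median of 52.4% over all windows.

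Eomes (ENSMUSG00000032446, chromosome 9) was low and variable. It was at 1.27, 1.02, 0.173 and 0.693 CPM in sKO-1 to sKO-4, against 1.51 and 0.507 CPM in WT-1 and WT-2. The groups overlapped, and libraries of the first subset were above those of the second in both genotypes. Its log2 fold change was -0.35 (SE 0.71, edgeR adjusted p = 0.911) and turned to 0.64 without WT-1. A difference was not detectable at this depth and spread. Eomes also acts in lymphocytes and natural killer cells. The 4 marker genes of those cells summed to 0.693 to 1.29 CPM in sKO and 0.169 to 0.415 CPM in WT, 0 of the 4 were at 0 in all libraries, and their part in the Eomes level was not tested.

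Pax7 (ENSMUSG00000028736, chromosome 4) had 6, 1, 6 and 7 counts in sKO-1 to sKO-4, against 8 and 9 counts in WT-1 and WT-2. The groups did not overlap but were 1 count apart. The exact Poisson 95% interval per library was 3.05 to 7.72 counts for sKO and 4.95 to 13.6 counts for WT, so a difference was not detectable at this depth. Of the skeletal muscle markers, a known site of Pax7, Myod1 was at 0 in all libraries, and the 4 genes summed to 0.0529 to 0.173 CPM in sKO and 0.0519 to 0.169 CPM in WT.

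Pdx1 (ENSMUSG00000029644, chromosome 5) had 1 count in sKO-2 and 0 in the other sKO libraries, and 0 counts in both WT libraries. No level could be set for it. Among pancreas markers Prss1 was at 0 in all libraries and Ins1 had 1 count, in sKO-1, while Ins2 had 6 to 10 counts in sKO and 11 and 17 in WT, and Cpa1 had 8 to 13 counts in sKO and 8 and 12 in WT. The 4 genes summed to 0.750 to 1.33 CPM in sKO and 0.986 to 1.63 CPM in WT.

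Levels can be compared between genes only per length, here as CPM per kilobase of merged exons. In sKO testes the order was Foxo1 (6.54 ± 0.304), Zbtb16 (1.96 ± 0.468), Sall4 (1.60 ± 0.556), Sox3 (0.354 ± 0.149), Eomes (0.190 ± 0.114) and Pax7 (0.0479 ± 0.0265; SD, n = 4 each), then Pdx1 with its single count and Neurog3 with 0. In WT testes it was Zbtb16 (9.32 ± 3.90), Foxo1 (8.57 ± 1.50), Sall4 (6.66 ± 1.62), Sox3 (5.52 ± 2.86), Neurog3 (0.336 ± 0.0947), Eomes (0.242 ± 0.170), Pax7 (0.0787 ± 0.0111; SD, n = 2 each) and Pdx1 with 0. Within WT-1 Zbtb16 was above Foxo1, and within WT-2 Foxo1 was above Zbtb16. In WT, neighbours among the first 4 genes overlapped in their library ranges (6.57 to 12.1 for Zbtb16, 7.51 to 9.63 for Foxo1, 5.52 to 7.81 for Sall4 and 3.49 to 7.54 for Sox3). In sKO the Foxo1 range (6.12 to 6.81) lay above that of Zbtb16 (1.33 to 2.45), while Zbtb16 and Sall4 (0.866 to 2.08) overlapped. The order of the low genes is not settled either. In sKO the Eomes range (0.0417 to 0.306) overlapped those of Sox3 (0.196 to 0.487) and Pax7 (0.00914 to 0.0690). In WT, Neurog3 (0.269 to 0.403) and Eomes (0.122 to 0.362) overlapped.

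The members were next set against the 10 pan-germ genes of the same library, which asks whether a member moved by the same amount as the sum of those genes. The Zbtb16 difference was smaller than the spread of the log2 ratios in either group. That of Sall4 was within the sKO spread (SD 0.30) but above the WT spread (SD 0.03). The permutation test used here cannot go below p = 0.0667, so its p-values cannot show whether these 2 genes moved with the pan-germ genes. The ratios of Sox3 lay lower in all sKO libraries, and those of Foxo1 lay higher. As a percent of the summed pan-germ CPM, Zbtb16 was at 9.05, 10.4, 7.67 and 7.31% in sKO-1 to sKO-4 and 8.76 and 6.92% in WT-1 and WT-2. The difference of the mean log2 ratio, sKO minus WT, was 0.13 (exact permutation test, two-sided, p = 0.533), and the groups overlapped. For Sall4 the percentages were 8.05, 8.26, 5.22 and 7.20% in sKO and 5.94 and 6.09% in WT, a log2 difference of 0.23 (exact permutation p = 0.400), with 3 of 4 sKO libraries above both WT libraries.

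Sox3 stood at 0.702, 0.540, 0.440 and 0.648% of the pan-germ sum in sKO, against 2.14 and 1.44% in WT, so all 4 sKO libraries were below both WT libraries. The log2 difference was -1.61, with mean log2 ratios of -7.45 ± 0.30 in sKO (SD, n = 4) and -5.83 ± 0.41 in WT (SD, n = 2). Foxo1 stood at 39.5, 53.5, 64.2 and 38.3% in sKO, against 11.5 and 13.0% in WT, a log2 difference of 1.97 with all 4 sKO libraries above both WT libraries. For both genes the exact permutation p was 0.0667, the smallest that the 15 assignments of 2 WT labels allow, and 0.167 after Benjamini-Hochberg adjustment over the 5 members. The design therefore cannot reach 0.05 for these ratios. For Eomes the log2 difference was 1.87 (exact permutation p = 0.200, adjusted p = 0.333), with 3 of 4 sKO libraries above both WT libraries. The pan-germ sum itself was lower in sKO (log2 difference -2.35), so any gene with an unchanged CPM gives a ratio higher by about that amount. The higher ratios of Foxo1 and Eomes are therefore no sign that these genes rose. Leaving out any 1 library kept the Sox3 difference between -1.90 and -1.33 and the Foxo1 difference between 1.83 and 2.07.

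**Figure D2:**
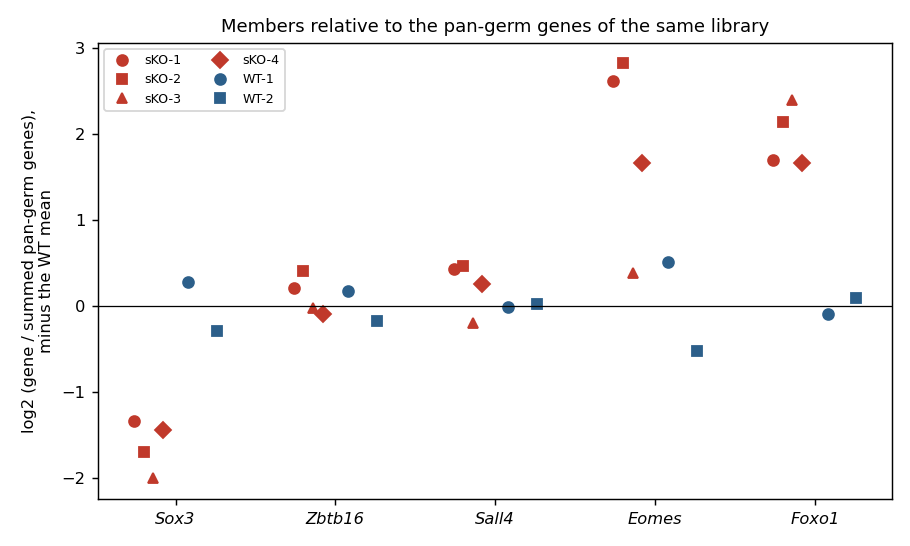
The log2 ratio of each tested member to the summed CPM of 10 pan-germ genes in the same library, minus the mean of the 2 WT libraries, with sKO libraries in red and WT libraries in blue. Zbtb16 and Sall4 lie around 0, the 4 sKO values of Sox3 lie below both WT values, and those of Foxo1 lie above both.

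Members were also compared with each other within a library. The log2 ratio of Zbtb16 to Sox3 CPM was 3.89 ± 0.36 in sKO (SD, n = 4) and 2.15 ± 0.16 in WT (SD, n = 2), a difference of 1.74. The ratio of Sall4 to Sox3 differed by 1.85. In both cases all 4 sKO libraries were above both WT libraries. Against Foxo1, Zbtb16 differed by -1.84, Sall4 by -1.74 and Sox3 by -3.58. Against Eomes these genes differed by -1.74, -1.64 and -3.48. In each of these pairs the 4 sKO libraries were below both WT libraries, so a full separation was not particular to Sox3. The ratios of Zbtb16 to Sall4 and of Foxo1 to Eomes (difference 0.10) did not separate the groups. These pair ratios were not tested. The WT libraries also differed from each other: WT-1 was 1.45 times WT-2 for the pan-germ sum, 1.42 times for Sall4, 2.16 times for Sox3 and 1.28 times for Foxo1.

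Genes with the profile most like that of a member, by Euclidean distance between centred log2 CPM over the 6 libraries, were looked up among 13183 genes. Closest to Zbtb16 were Trim71, an RNA-binding ubiquitin ligase (distance 0.30), Pramel1, a PRAME family gene (0.31), and Usp26, an X-linked deubiquitinase (0.36), where the median gene was at 2.77. Closest to Sall4 were Pramel1 (0.28), the kinase gene Map3k15 (0.29) and Tdrd12, a Tudor-domain gene of the piRNA pathway (0.35; median gene 2.71). The profile of Sox3 had Fam90a1b (0.85), Stra8 (0.95) and Sohlh1 (1.06) nearest to it, with the median gene at 4.56. Stra8, the retinoic acid target, was at 1.85 CPM in sKO and 27.0 CPM in WT on average, and Sohlh1, a helix-loop-helix factor of differentiation, at 1.52 CPM in sKO and 12.8 CPM in WT. Closest to Foxo1 were the centrosome gene Cep83 (0.12), the nuclear pore gene Nup205 (0.13) and C1qtnf3 (0.14), but there the median gene was at only 0.72. Cep83, Nup205 and C1qtnf3 did not pass the test (log2 fold change -0.42, -0.37 and -0.41, edgeR adjusted p from 0.130 to 0.177). Eomes had Oas1c (0.34), Ccdc68 (0.38) and Tbx22 (0.70) nearest, with the median gene at 2.11.

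Relatives of the members from the same gene families give a further comparison. Of 29 relatives 12 were tested, with a median log2 fold change of 0.05. Of these 12, 0 rose and 2 fell, where 2.30% of all tested genes were called lower. The lower genes were Sall1, the relative of Sall4, at 1.41 ± 0.469 CPM in sKO (SD, n = 4) and 7.17 ± 3.37 CPM in WT (SD, n = 2; log2 fold change -2.34, SE 0.40, edgeR adjusted p = 0.0307), and Zbtb32, a relative of Zbtb16, at 0.827 ± 0.137 CPM in sKO and 3.97 ± 2.10 CPM in WT (-2.25, SE 0.37, adjusted p = 0.0291). Both calls were lost without WT-1 (adjusted p of 0.322 and 0.315) and without any 1 of the sKO libraries (0.0544 to 0.0865). Of the other tested relatives, Sall2 had a log2 fold change of 0.12 and Sall3 of -0.83. Zbtb7a, Zbtb7b and Bcl6 ran from 0.08 to 0.17, and Pax2 and Pax8, the tested relatives of Pax7, were at -0.34 and -0.22. The relatives of Foxo1 did not pass either: Foxo3 was at 0.12, Foxo4 at 0.02 and Foxo6 at 0.22. Neurog1, Neurog2 and Neurod1, the relatives of Neurog3, had 0 counts in all 6 libraries, and those of Sox3, Eomes and Pdx1 were under the count filter.

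**Figure D3:**
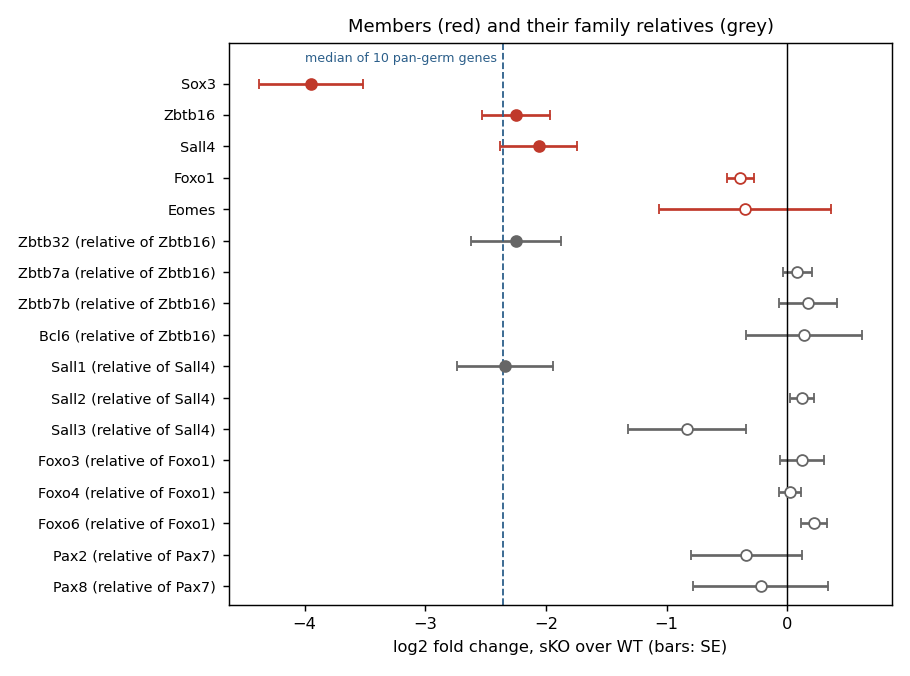
Log2 fold change (sKO over WT) with its SE for the 5 tested members in red and their 12 tested relatives in grey, filled where the edgeR adjusted p was under 0.05. The dashed line is the median of the 10 pan-germ genes, -2.36. Zbtb16 and Sall4 lie near it together with Zbtb32 and Sall1, Sox3 lies below it, and Foxo1 and its relatives lie near 0.

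Other genes of the same cells give the setting of these values. Of 16 other factors of undifferentiated spermatogonia 14 were tested, with a median log2 fold change of -0.95. Of these 14, 0 rose and 4 fell, where 2.30% of all tested genes were called lower. The 4 lower factors were Rhox10, an X-linked homeobox gene (-3.25, SE 0.41, edgeR adjusted p = 0.0138), Taf4b, a germ cell TFIID subunit (-0.97, SE 0.13, adjusted p = 0.0152), the zinc-finger gene Glis3 (-1.85, SE 0.26, adjusted p = 0.0193) and the forkhead gene Foxc2 (-1.38, SE 0.24, adjusted p = 0.0328). Rhox10 was at 0.290 CPM in sKO and 2.82 CPM in WT, and Glis3 at 8.33 CPM in sKO and 30.1 CPM in WT. Rhox10 had 4, 8, 3 and 6 counts in sKO-1 to sKO-4, against 61 and 44 in WT-1 and WT-2. It therefore passed the count filter only through WT, and its fold change rests on few sKO counts. The 10 factors not called ran from -1.93 for Pou5f1 (edgeR adjusted p = 0.0720) to 0.02 for Stat3 (0.969). Id4 was at -0.74 (0.198) and Etv5 at -0.07 (0.898). Of 11 markers of these cells that are no transcription factors 10 were tested, 4 fell and 0 rose (median -1.25). Lin28a, an RNA-binding protein, was at -2.32 (adjusted p = 0.0110), the piRNA-pathway gene Piwil4 at -1.99 (0.0193), and the GDNF receptor genes Ret and Gfra1 at -1.69 (0.0377) and -1.29 (0.0436). The 6 markers not called ran from -1.59 for Nanos3 (edgeR adjusted p = 0.161) to -0.06 for Tspan8 (0.970). Without WT-1 all 8 calls were lost, with adjusted p from 0.145 for Lin28a to 0.365 for Gfra1. Those of Foxc2 and Gfra1 were lost without any 1 of the 6 libraries (0.0682 to 0.315 and 0.0578 to 0.365). Taf4b lost its call without WT-2 (0.0595). Glis3 lost it without WT-2, sKO-1 or sKO-2 (0.0501 to 0.0593), Piwil4 without WT-2 or any of sKO-1 to sKO-3 (0.0508 to 0.0649) and Ret without WT-2 or any of sKO-2 to sKO-4 (0.0726 to 0.0837).

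Of 10 genes of spermatogonial differentiation 10 were tested, 6 fell and 0 rose (median -1.86), where 2.30% of all tested genes were called lower. The 4 not called were Rhox13 (log2 fold change -1.84, edgeR adjusted p = 0.130), Kit (-0.51, 0.222), Rarg (-0.35, 0.519) and Ccnd2 (0.15, 0.808). Stra8 (-3.87, SE 0.37), the chromatin gene Scml2 (-1.88, SE 0.14), Sohlh1 (-3.07, SE 0.31) and Sohlh2 (-1.94, SE 0.22) had edgeR adjusted p of 0.00929, 0.00929, 0.00970 and 0.0110. The other lower genes were Dmrtb1 (-3.77, adjusted p = 0.0398) and the DNA methyltransferase gene Dnmt3b (-0.96, adjusted p = 0.0390), named after their values were seen. Dmrtb1 had 9, 3, 1 and 18 counts in sKO-1 to sKO-4, against 133 and 89 in WT-1 and WT-2. Like Rhox10, it passed the count filter only through WT. Without WT-1, the 6 calls were lost (adjusted p from 0.0905 for Scml2 to 0.360 for Dnmt3b). Dmrtb1 also lost its call without WT-2 or any of sKO-1 to sKO-3 (0.0630 to 0.100), and Dnmt3b without any 1 of the sKO libraries (0.0538 to 0.107).

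**Figure D4:**
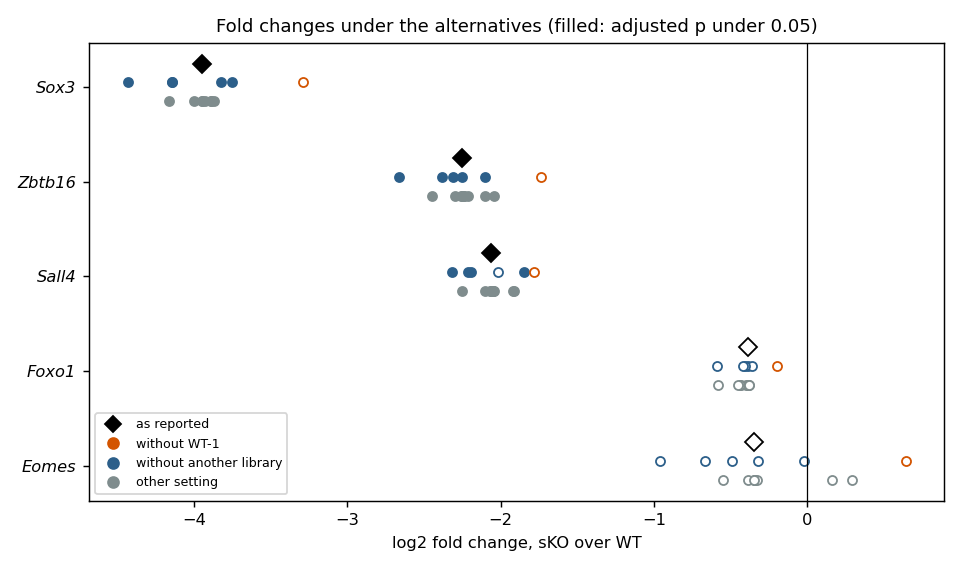
Log2 fold change (sKO over WT) of the 5 tested members as reported (black diamond), without WT-1 (orange), without another library (blue) and under the other settings (grey), filled where the adjusted p was under 0.05. Sox3, Zbtb16 and Sall4 stayed below 0 in every fit shown and lost their calls without WT-1 (Sall4 also without sKO-2), and Eomes crossed 0.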

How the data were processed

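The authors deposited 1 table of expected counts per gene for 57170 identifiers in 6 libraries of polyadenylated testis RNA, of which 19.4% of values are not whole. The submitters' processing notes name the build mm39 and the tools RSEM, STAR and fastp. Annotation, settings and use of strand: not given in the sources used here. Libraries were grouped by title (4 sKO, 2 WT); the series' design text speaks of 3 per group. Expected counts were rounded and filtered (filterByExpr, minimum count 10), scaled by TMM and tested over 17707 genes with edgeR 4.0.16 (glmQLFit, glmQLFTest; R 4.3.3), with no covariate and Benjamini-Hochberg adjustment (threshold 0.05). The SE is the log2 fold change divided by the root of F. DESeq2 1.42.0 was an alternative. The steps were tested on simulated data. Symbols, chromosomes and exon lengths came from GENCODE M21 (GRCm38), which matched 90.5% of identifiers; no coordinates were taken from it. RSEM can share reads between near-identical genes.

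Members, gene lists and alternatives were chosen with earlier results of these data known. In the lists of other factors, other markers, differentiation genes and relatives, up to 4 genes with the smallest adjusted p under 0.05, or else the 2 most abundant, were named. Amh, Cnn1, the markers of other organs and the genes named as not called in those lists were named after their values were seen. For each tested member, the 3 nearest profiles with a mean of at least 1 CPM were named (log2 CPM with a prior count of 2; Gm, Rik and -ps genes passed over). Ratios to the pan-germ sum were compared by an exact permutation test over libraries.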

Additional observations from a re-analysis of the deposited data

How the results depend on the processing

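Over all genes, 22 were called higher and 408 lower; leaving out 1 library gave 1 to 7 higher and 1 to 221 lower, and 0 to 3 of the members lower, with 0 only without WT-1. Sertoli library sizes gave 9 higher and 671 lower genes, DESeq2 81 and 648, and the library subset term 880 and 1531. That subset was read off these same data, so the larger counts are no separate support. With the replicate number as a block, in the 4 libraries numbered 1 and 2, 269 genes were lower, and the same 4 libraries without the block, chosen after seeing the data, gave 8 higher and 171 lower. The deviations of same-numbered libraries correlated at 0.416 for number 1 and -0.441 for number 2, and nothing in the labels says that a number marks a shared source, so the block is given only here. It ended the calls of Foxc2 (0.0944), Zbtb32 (0.0825) and Dnmt3b (0.0539), and summed counts as library size those of Gfra1 (0.0533) and Dnmt3b (0.0561; all edgeR adjusted p). The same 3 members were lower with the block, RLE factors, summed counts as library size and DESeq2. A filter of 1 CPM in 4 libraries removed Sox3 and Eomes. Of 26 named genes that passed the test, leaving out WT-1 ended the call for 26, leaving out WT-2 for 9 and leaving out 1 of the sKO libraries for 8 to 15. Without WT-1, under the block and in the same libraries without it, the log2 fold changes turned positive for Eomes (0.64, 0.29 and 0.16), Oas1c (0.45, 0.41 and 0.33), Ccdc68 (0.46, 0.15 and 0.02) and Tbx22 (0.47, 0.36 and 0.23), and that of Oas1c also without sKO-3 (0.14). Leaving out 1 library gave at the lowest -0.96 for Eomes, -0.66 for Oas1c, -1.03 for Ccdc68 and -0.98 for Tbx22. The Zbtb16 ratio to the pan-germ sum turned to -0.04 without WT-2 (-0.04 to 0.30 over left-out libraries). The cause of these shifts was not tested. Neurog3, Pax7 and Pdx1 are limited by depth.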
